A study of Mus musculus with 27 samples.

Results

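The 10 genes described here are Reln, Dab1, Vldlr, Lrp8, Dcx, Pafah1b1, Cdk5, Cdk5r1, Trp73 and Ndel1, which are known for the Reelin pathway and for the migration of neurons. They were chosen by their symbols from the 55416 genes of the count table, and all 10 passed the filter on low counts in every comparison. Whole-brain RNA from fetuses of 3 strains was sequenced on gestational days 12, 15 and 17 (d12, d15 and d17), which gave 9 groups of 3 libraries. Of the strains, AKR/J and C57BL/6J are inbred, while B6.Cg-Cav1tm1Mls/J (Cav1-null) is a line congenic to C57BL/6J in which Cav1, the gene of caveolin-1, is disrupted in the germ line. All fetuses were untreated females, the dams were about 8 weeks old, the day of the vaginal plug was counted as day 1, and the fetuses were snap frozen before the brains were dissected. The labels do not say which fetuses shared a litter, so the p-values measure the spread between libraries, which may be smaller than that between litters.

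Reelin is a large secreted glycoprotein that Cajal-Retzius neurons release at the surface of the developing cortex and hippocampus. It binds the receptors VLDLR and ApoER2 (the product of Lrp8) on migrating neurons, which leads to phosphorylation of the adaptor Dab1 and to the correct placing of neurons in layers. Migration also needs the microtubule proteins doublecortin (Dcx), Lis1 (Pafah1b1) and Ndel1, which act with the motor dynein, and the kinase Cdk5 with its activator p35 (Cdk5r1). Trp73 codes for the transcription factor p73, which Cajal-Retzius neurons express and need to survive.

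The libraries held 26363697 to 39759702 reads counted in genes (median 29700746). Levels are given as CPM, the reads scaled to library size with TMM factors over all 27 libraries. Cav1 was at 0 to 0.51 CPM in the 9 Cav1-null libraries and at 9.25 to 39.9 CPM in the other 18. All 6 neuron markers were detected in every library, and their summed level was 1520 to 1940 CPM for AKR/J on d12, against 2610 to 5680 CPM in the 6 groups of C57BL/6J and Cav1-null fetuses. Libraries labelled as whole brain differed in forebrain genes on d12. Emx1, a homeobox gene of the dorsal telencephalon, was at 1.32 CPM in AKR/J library 3 of d12 against 17.1 and 17.4 CPM in its other libraries, at 14.7 against 31.6 and 48.5 CPM in C57BL/6J library 3, and at 6.19 against 31.5 and 24.6 CPM in Cav1-null library 3. AKR/J libraries of d12 also held 33200 to 198000 CPM of 9 erythroid genes against at most 18600 CPM in any other library, and up to 812 CPM of 6 trophoblast and decidua genes and 1640 CPM of 5 yolk sac genes. The summed level of 4 midbrain and hindbrain genes (En1, En2, Hoxa2 and Hoxb2, a list also made after values were seen) differed more on d12, and library 3 was the highest of each strain. It was 5.48, 23.7 and 89.9 CPM in the AKR/J libraries, 4.2, 122 and 131 CPM in those of C57BL/6J, and 16.2, 13.2 and 74.1 CPM in those of Cav1-null fetuses. C57BL/6J library 1 thus stood apart from its group for these genes, and library 3 for Emx1. Member results on d12 are given with and without library 3 where this changes a call, and the other libraries are named where leaving one out changes a call. All 3 AKR/J libraries of d12 held the erythroid reads, so no result of AKR/J on d12 is free of them.

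On the scale of FPKM (here CPM per kilobase of the canonical transcript), Dcx was the highest of the members in 8 of the 9 groups. In C57BL/6J on d15 the levels ran from Dcx (225 ± 13.1 FPKM, SD, n = 3) through Cdk5r1 (144 ± 9.95), Pafah1b1 (89.8 ± 2.79), Lrp8 (55.9 ± 3.6), Dab1 (35.4 ± 2.42), Cdk5 (34.2 ± 1.09), Reln (32.5 ± 0.58), Ndel1 (24.8 ± 0.71) and Vldlr (12.5 ± 0.41) to Trp73 (3.9 ± 0.30). The neighbours Dab1 and Cdk5 did not differ beyond their spread in this order, and Cdk5 and Reln lay close together. In AKR/J on d12 Pafah1b1 (55.3 ± 3.03 FPKM) stood above Dcx (41.6 ± 5.03), and Cdk5r1 (15.3 ± 2.28), Lrp8 (16.6 ± 5.62) and Ndel1 (14.3 ± 2.91) were within their spread of each other. The members differed in how far they ranged. The highest group mean was 9.46 times the lowest for Cdk5r1, 7.39 times for Reln, 5.4 times for Dcx and 4.64 times for Trp73, against 1.85 times for Pafah1b1, 1.78 times for Ndel1 and 1.41 times for Cdk5. The lowest group was AKR/J on d12 for 9 of the 10 genes, and the highest was C57BL/6J on d15 for 6 of them.

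**Figure D1:**
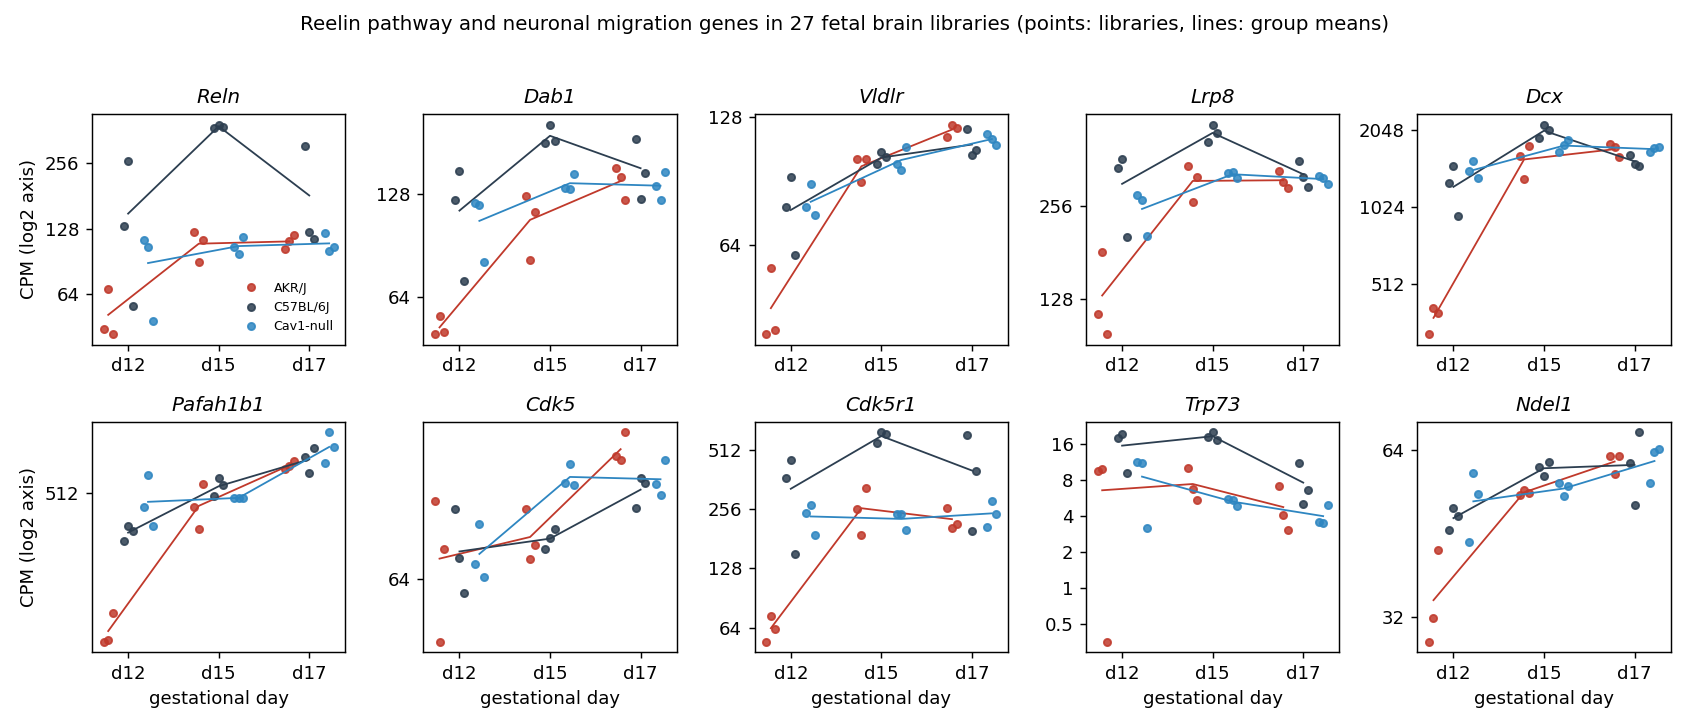
CPM of each member (vertical log2 axis) by gestational day in AKR/J, C57BL/6J and Cav1-null fetuses, with 1 point per library and lines through the group means. AKR/J libraries of d12 were the lowest for most members, and the C57BL/6J libraries of d15 stood above those of the other strains for Reln, Cdk5r1 and Trp73.

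Reln, the gene of the ligand, spans 460249 bases of GRCm39 on the minus strand (chr5:22089452-22549700). In AKR/J it was at 44.4, 67.9 and 41.8 CPM in the 3 libraries of d12, at 124, 89.9 and 114 on d15, and at 103, 113 and 120 on d17. In C57BL/6J it was at 132, 263 and 56.2 CPM on d12, at 374, 387 and 379 on d15, and at 308, 124 and 115 on d17. In Cav1-null fetuses it was at 114, 105 and 48 CPM on d12, at 105, 97.7 and 117 on d15, and at 123, 101 and 105 on d17. The 3 libraries of C57BL/6J on d15 and library 1 of d17 lay above every AKR/J and Cav1-null library, and so did libraries 1 and 2 of d12, while library 3 of d12 and library 3 of d17 lay within the range of the other strains and library 2 of d17 at the top of it.

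Dab1, the adaptor that is phosphorylated when Reelin binds, lies on the plus strand of chromosome 4 (chr4:103476556-104602041). Its mean rose from 52.1 ± 3.59 CPM in AKR/J on d12 to 108 ± 23.2 on d15, and was 140 ± 15.7 on d17. In C57BL/6J it was 115 ± 40.3, 190 ± 13 and 153 ± 31 CPM on the 3 days, and in Cav1-null fetuses 107 ± 22.5, 138 ± 8.06 and 136 ± 13.1 CPM. The receptor genes had a like order on d12, with AKR/J lowest. Vldlr (chr19:27193862-27231631) was on d12 at 45.3 ± 9.62 CPM for AKR/J, 77.2 ± 16.1 for C57BL/6J and 80.8 ± 7.12 for Cav1-null fetuses, and reached 111 to 120 CPM as group means on d17. Lrp8 (chr4:107659066-107734038) was at 132 ± 44.6, 303 ± 88 and 252 ± 39.5 CPM on d12 in the same order, and at 312 ± 20.2, 326 ± 32.5 and 315 ± 10.1 CPM on d17. Both receptor genes thus lay close together in the 3 strains by d17.

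Dcx, the gene of the microtubule protein of young migrating neurons, lies on the minus strand of the X chromosome (chrX:142638838-142716307). It was at 326, 413 and 395 CPM in AKR/J on d12, far below the 1320 to 1810 CPM of the 6 later AKR/J libraries. C57BL/6J libraries held 1270, 1480 and 944 CPM on d12, 1920, 2160 and 2050 on d15, and 1640, 1520 and 1490 on d17. Cav1-null libraries ranged from 1330 to 1880 CPM over all 3 days. AKR/J libraries of d12 did not overlap with any other library for Dcx. Cdk5r1, a gene of 1 exon (chr11:80367849-80372010), showed the same gap on d12 and a second one on d15. It was at 54.2, 73.1 and 63.2 CPM in AKR/J on d12 and at 256, 190 and 329 on d15. In C57BL/6J it was at 369, 452 and 152 CPM on d12, at 554, 630 and 619 on d15, and at 607, 197 and 401 on d17. In Cav1-null fetuses it stayed between 190 and 281 CPM in all 9 libraries.

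Trp73 (chr4:154140706-154224665) had the lowest level of the members. It was at 9.44, 9.87 and 0.36 CPM in AKR/J on d12, and the lowest of these, library 3, had only 7 reads of the gene. C57BL/6J libraries held 17.9, 19.3 and 9.21 CPM on d12, 18.1, 20.1 and 17.4 on d15, and 11.1, 5.06 and 6.63 on d17. Cav1-null libraries held 11.3, 11.1 and 3.17 CPM on d12, 5.51, 5.49 and 4.81 on d15, and 3.54, 3.49 and 4.93 on d17. In each strain the d12 library that was lowest for Trp73 was also the one that was lowest for Emx1. Over all 27 libraries, the summed level of 4 forebrain genes (Emx1, Emx2, Six3 and Lhx2, a list made after values were seen) ran from 86.8 CPM in Cav1-null library 1 of d17 to 565 CPM in C57BL/6J library 2 of d12. Trp73 was at 3.54 and 19.3 CPM in the same libraries, and its lowest level stood at a sum of 119 CPM in AKR/J library 3 of d12. Whether the share of forebrain tissue has a part in the differences of Trp73 or Reln was not tested, and fewer cells of a type cannot be told apart from less RNA per cell in whole-brain libraries.

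**Figure D2:**
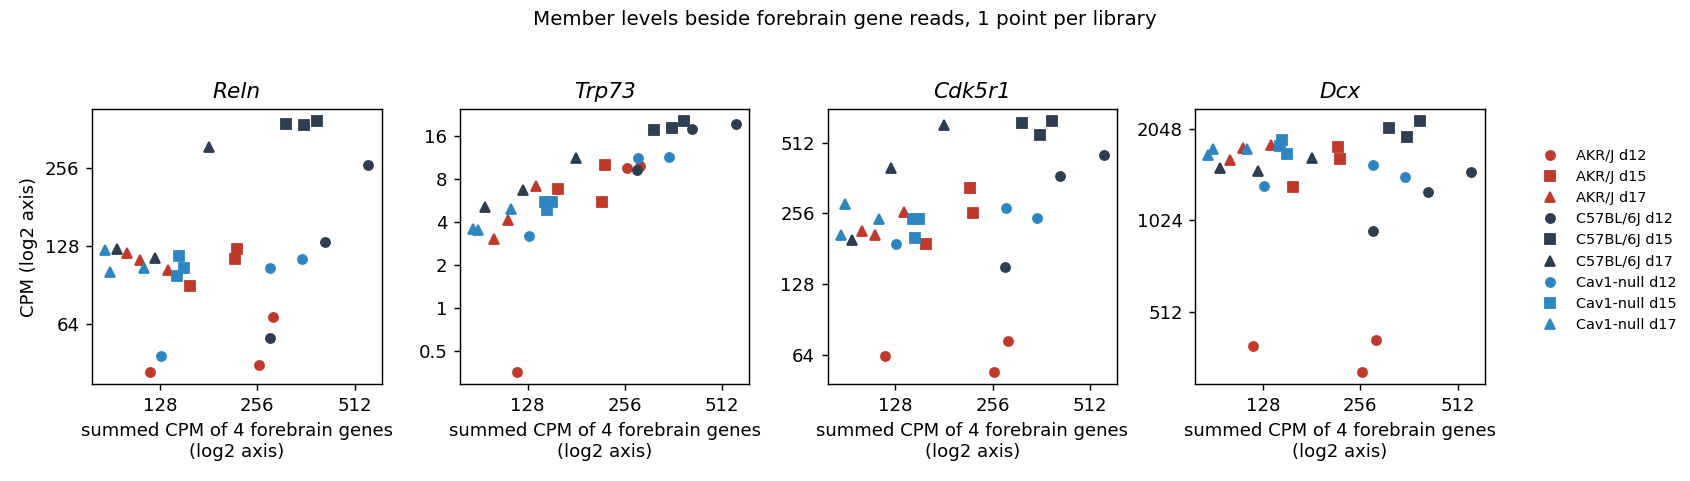
CPM of Reln, Trp73, Cdk5r1 and Dcx (vertical log2 axes) against the summed CPM of 4 forebrain genes (horizontal log2 axes), with 1 point per library, colours for strains and symbols for days. Trp73 was at 3.54 CPM at the lowest sum (86.8 CPM) and at 19.3 CPM at the highest (565 CPM), but was far below the other libraries in AKR/J library 3 of d12. The sum was made after values were seen and holds Emx1, the gene with the pattern most similar to that of Trp73. The AKR/J libraries of d12 lay apart for Dcx and Cdk5r1.

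Pafah1b1, Ndel1 and Cdk5, whose products act on dynein and on the cytoskeleton in many cell types, varied least. Pafah1b1 (chr11:74564774-74615723) was at 323 ± 17.7 CPM in AKR/J on d12 and between 448 and 597 CPM in the other 8 group means. Ndel1 (chr11:68698978-68762786) was at 34.3 ± 6.96 CPM in AKR/J on d12 and between 48.2 and 61.1 CPM elsewhere. Cdk5 (chr5:24612595-24628594) had group means of 68.2 to 95.9 CPM, and its lowest library held 52.7 CPM and its highest 101 CPM. The gene of the kinase thus differed little over days and strains, whereas the gene of its activator had the widest range of the 10 members.

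The change between days was tested within each strain, with the early phase as d15 over d12 and the late phase as d17 over d15. Log2 fold changes come from edgeR fits of the 6 libraries compared, with their own scaling, and adjusted p-values are Benjamini-Hochberg values over all genes tested. In the AKR/J early phase, 7 of the 10 members rose and none fell, while 28.9% of all genes tested were called in either direction and 14.8% rose. Dcx rose 4.04-fold (log2 fold change 2.02, SE 0.25, adjusted p = 0.00176) and Cdk5r1 3.93-fold (1.98, SE 0.24, adjusted p = 0.00174). Lrp8 rose 2.28-fold (adjusted p = 0.0128), Vldlr 2.09-fold (adjusted p = 0.00546), Reln 2.06-fold (adjusted p = 0.0128), Dab1 2.01-fold (adjusted p = 0.00773) and Ndel1 1.52-fold (adjusted p = 0.0356). The log2 fold change of Pafah1b1 was 0.56 with an adjusted p of 0.0516, and those of Cdk5 (0.05) and Trp73 (0.12) were smaller than their standard errors. The libraries of the 2 days did not overlap for the 7 genes or for Pafah1b1, as was the case for 47.4% of all genes. Without AKR/J library 3 of d12, 6 of the 7 calls held, with 18.1% of all genes called, and Reln had a log2 fold change of 0.92 with an adjusted p of 0.0512. Without library 1 or library 3 of d15, Dab1, Vldlr, Dcx and Cdk5r1 were called, with 13.7 and 12.4% of all genes. The call of Ndel1 was also lost without library 1 of d12 (18.1% of all genes called) or library 2 of d15 (21.7%) and with RLE size factors (29%), and Pafah1b1 was called without library 2 of d12 (43.5%). With a trend of all fold changes in transcript length and GC content removed, Reln was not called (27.7%). Erythroid genes fell from 33200 to 198000 CPM on d12 to 2010 to 3070 CPM on d15 in the same libraries, and neuron markers went from 1520 to 1940 CPM to 2650 to 4060 CPM. The part of either in the change of the members was not tested.

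In the C57BL/6J early phase, Dcx was the 1 member called, against 14.9% of all genes, and rose 1.61-fold (log2 fold change 0.69, SE 0.16, adjusted p = 0.0387). The log2 fold change of Reln was larger (1.31) but so was its SE (0.45, adjusted p = 0.0871), since the libraries of d12 ranged from 56.2 to 263 CPM. The other members had log2 fold changes of 0.01 (Cdk5) to 0.85 (Cdk5r1). Without library 3 of d12, which was low in forebrain genes, 4 members rose and 16.5% of all genes were called. They were Dcx, Reln (log2 fold change 0.92, adjusted p = 0.0417), Cdk5r1 (0.52, adjusted p = 0.0214) and Dab1. Without library 2 of d12, Vldlr was called in place of Cdk5r1, with 29.8% of all genes called. Without library 1 of d12 no member and 330 genes were called, and with any 1 library of d15 left out, no member was called and 0 to 6 genes were called in all, in place of 2850. DESeq2 called Reln, Dab1, Cdk5r1 and Ndel1 besides Dcx (25.5% of all genes), and 1 edgeR model of all 27 libraries Reln, Dab1 and Vldlr besides Dcx (16.3%). In the Cav1-null early phase, 3 members rose against 23.4% of all genes called, and each change was small. Cdk5 rose 1.27-fold (adjusted p = 0.0189), Vldlr 1.26-fold (adjusted p = 0.0296) and Lrp8 1.3-fold (adjusted p = 0.0382). Dcx had a log2 fold change of 0.32 (adjusted p = 0.0501), and Reln (0.27, SE 0.26) and Cdk5r1 (−0.04, SE 0.13) were not called. Trp73 had a log2 fold change of −0.69 (SE 0.41, adjusted p = 0.261), and Dab1 (0.37), Ndel1 (0.08) and Pafah1b1 (0.02) were not called either. Without library 3 of d12, Trp73 fell by 1.08 on the log2 scale (SE 0.16, adjusted p = 5.38e-05) and Dcx was called as well, with 35.9% of all genes called. Leaving out any 1 of the d15 libraries ended all 3 calls, without library 1 of d12 the call of Lrp8 alone was left, and without library 2 of d12 that of Lrp8 was lost and Dcx was called. Over the fits with 1 library left out, 2301 to 7378 genes were called in all, in place of 4666. The model of all 27 libraries called no member (13.1% of all genes), and DESeq2 called Dab1 and Dcx as well (26.9%). On d12 and d15 neuron markers summed to 2610 to 4550 and 4720 to 5370 CPM in C57BL/6J. In Cav1-null fetuses they summed to 2980 to 3940 and 3650 to 3690 CPM. Neural progenitor markers were at 1650 to 2270 and 1320 to 1480 CPM in C57BL/6J. In Cav1-null fetuses they were at 1040 to 1480 and 550 to 566 CPM. The part of either in these changes was not tested.

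In the late phase 2 members were called for AKR/J, 1 for C57BL/6J and 1 for Cav1-null fetuses. In AKR/J, Cdk5 rose 1.33-fold (adjusted p = 0.0119) and Vldlr 1.24-fold (adjusted p = 0.0234), with 22.1% of all genes called. Both calls were lost without library 2 or without library 3 of d17, and that of Vldlr without library 1 of d15, without a filter on low counts (12.7% of all genes called) or in the model of all 27 libraries (10.2%). With 1 library left out, 1576 to 4802 genes were called in all, in place of 4409. The other members had log2 fold changes of −0.63 (Trp73) to 0.39 (Dab1). In C57BL/6J, Trp73 fell by 1.22 on the log2 scale (SE 0.29, 0.43-fold, adjusted p = 0.0355), with 13% of all genes called. The groups did not overlap for Trp73, with 17.4 to 20.1 CPM on d15 and 5.06 to 11.1 CPM on d17, as for 42.3% of all genes, but the call was lost without any 1 library of d15 or library 3 of d17, and in the model of all 27 libraries (19.6% of all genes called). The fits with 1 library left out called 160 to 6990 genes in all, in place of 2594. DESeq2 called Reln, Lrp8 and Dcx besides Trp73 (23%). The other members had log2 fold changes of −0.99 (Reln) to 0.28 (Cdk5). The summed level of the 4 forebrain genes went from 315 to 391 CPM on d15 to 94.3 to 181 CPM on d17 in the same libraries. C57BL/6J library 1 of d17 had more Reln (308 CPM), Cdk5r1 (607 CPM) and Emx1 (15.4 CPM) than the other libraries of its group. Without it, 6 members and 33.2% of all genes were called, and Reln fell by 1.61 (SE 0.11, adjusted p = 0.00103) and Cdk5r1 by 0.94 (SE 0.29, adjusted p = 0.0467) on the log2 scale. Dab1, Lrp8 and Trp73 also fell and Cdk5 rose by 0.31 in that fit. In Cav1-null fetuses, Pafah1b1 rose 1.19-fold (adjusted p = 0.0203) with 27.3% of all genes called, and the call was lost without library 1 or 2 of d15 or library 3 of d17, and in the model of all 27 libraries (3.56%). Vldlr was called as well without library 3 of d15 (21.6%), and Ndel1 without library 1 of d17 (25.5%). The other members had log2 fold changes of −0.40 (Trp73) to 0.17 (Vldlr). With a trend in transcript length and GC content removed, Pafah1b1 had a value of 0.19 (adjusted p = 0.0634) and Lrp8 fell by 0.17.

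**Figure D3:**
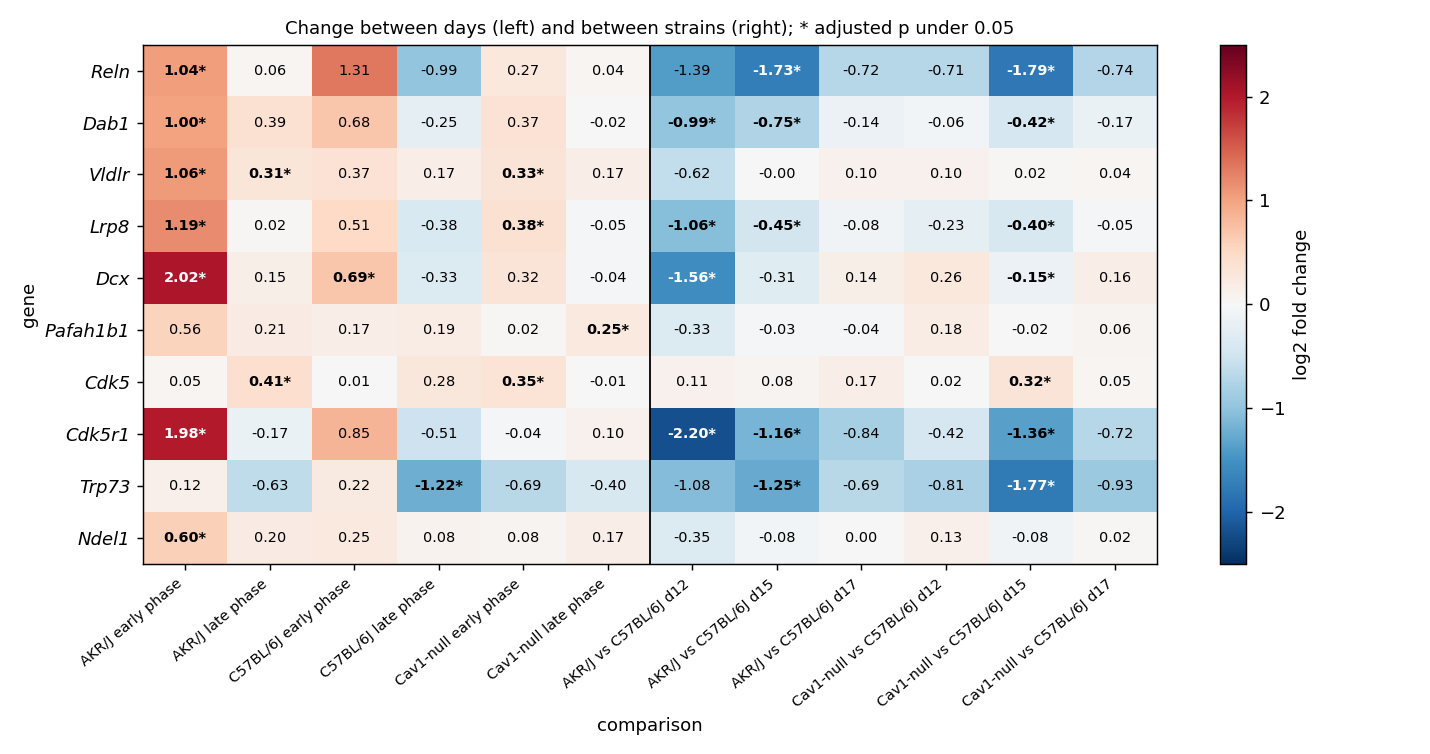
Log2 fold changes of the 10 members (rows) in the 12 comparisons of 2 groups (columns), with the changes between days on the left and the strains against C57BL/6J on the right. Red is higher on the later day or in the other strain, blue is lower, and an asterisk marks an adjusted p under 0.05. The changes of the AKR/J early phase and the differences on d15 hold most of the calls.

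Each strain was then compared with C57BL/6J on the same day. The comparisons of AKR/J and Cav1-null fetuses share the C57BL/6J libraries, so their values are given side by side and not as independent. On d12, 4 members were lower in AKR/J and none was higher, with 28.6% of all genes called. Cdk5r1 was at 0.22 times its level in C57BL/6J (log2 fold change −2.20, SE 0.37, adjusted p = 0.0115) and Dcx at 0.34 times (−1.56, SE 0.28, adjusted p = 0.0115). Lrp8 was at 0.48 times (adjusted p = 0.0366) and Dab1 at 0.50 times (adjusted p = 0.0259). Reln had a log2 fold change of −1.39 (SE 0.47, adjusted p = 0.0561), and the values of Trp73 (−1.08), Vldlr (−0.62), Ndel1 (−0.35), Pafah1b1 (−0.33) and Cdk5 (0.11) were not called either. The differences moved with transcript length and GC content, with a median log2 fold change of 0.62 in the 25% of genes with the shortest transcripts and −0.36 in the 25% with the longest. With the trend removed, Dcx (−1.61, adjusted p = 0.019) and Cdk5r1 (−1.69, adjusted p = 0.0194) were called, with 16% of all genes, while Dab1 (−0.75, adjusted p = 0.062) and Lrp8 (−0.35, adjusted p = 0.29) were not. Without library 3 of both strains, Reln was called (−1.67, adjusted p = 0.0365) with Dab1, Dcx and Cdk5r1, while Lrp8 was not, and 15% of all genes were called. All 4 calls were lost without C57BL/6J library 2, when 25 genes were called in all, and without AKR/J library 1 or 3 or C57BL/6J library 1 only Dcx and Cdk5r1 were called, with 6.8, 7.48 and 8% of all genes. Vldlr was called as well without AKR/J library 2 (39.9%), and Reln and Vldlr without C57BL/6J library 3 (28.1%). The model of all 27 libraries called 8 members (47%), which left out Cdk5 and Trp73. In Cav1-null fetuses no member was called on d12, with 0% of all genes called by edgeR, and DESeq2 called no member and 2044 genes. Of all genes, 22.1% had an unadjusted p under 0.05 there, and none of the members did, with log2 fold changes of −0.81 (Trp73) to 0.26 (Dcx). Without library 3 of both strains, Cdk5r1 (−0.61, adjusted p = 0.0298) and Trp73 (−0.66, adjusted p = 0.035) were lower in Cav1-null fetuses, with 18% of all genes called.

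On d15, the day on which 6 members had their highest mean in C57BL/6J, 5 members were lower in AKR/J and none was higher, with 41.1% of all genes called and 22.3% called lower. In Cav1-null fetuses 6 members were lower and 1 was higher, with 58.6% of all genes called and 31.8% called lower. Reln was at 0.30 times its C57BL/6J level in AKR/J (log2 fold change −1.73, SE 0.11, adjusted p = 0.000126) and at 0.29 times in Cav1-null fetuses (−1.79, SE 0.07, adjusted p = 3.08e-08). Cdk5r1 was at 0.45 times in AKR/J (adjusted p = 0.00165) and at 0.39 times in Cav1-null fetuses (adjusted p = 2.93e-07). Trp73 was at 0.42 times in AKR/J (adjusted p = 0.00387) and at 0.29 times in Cav1-null fetuses (adjusted p = 8.74e-07). The libraries did not overlap for these 3 genes in either comparison, as for 53.4% of all genes in AKR/J and 65.3% in Cav1-null fetuses. Dab1 (log2 fold change −0.75 in AKR/J and −0.42 in Cav1-null fetuses) and Lrp8 (−0.45 and −0.40) were lower in both. Dcx was called lower in Cav1-null fetuses (−0.15, adjusted p = 0.0482), but its value was 0.03 (adjusted p = 0.647) with library sizes alone, so that its direction depends on the scaling, and the call was lost with any 1 library but C57BL/6J library 1 left out. In AKR/J its value was −0.31 (adjusted p = 0.0777), and it was called without AKR/J library 3 (−0.41, adjusted p = 0.0327), with 37.4% of all genes called. The call of Lrp8 in AKR/J was lost without C57BL/6J library 2 (28.3%). Cdk5 was higher in Cav1-null fetuses (0.32, adjusted p = 0.00048). The other members, Vldlr, Pafah1b1 and Ndel1, had log2 fold changes of −0.08 to 0.02 in both comparisons and were not called, and neither was Cdk5 in AKR/J (0.08). Library sizes alone called Vldlr higher in both, with Cdk5 in AKR/J (44.8% of all genes) and Pafah1b1 in Cav1-null fetuses (61.2%). In the model of all 27 libraries the members called were Reln, Dab1 and Cdk5r1 in AKR/J (22.5%) and Reln, Cdk5r1 and Trp73 in Cav1-null fetuses (35.1%).

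The d15 differences also moved with the length and the GC content of transcripts. In Cav1-null fetuses against C57BL/6J, the median log2 fold change was 0.44 in the 25% of genes with the shortest transcripts and −0.29 in the 25% with the longest, and it was 0.53 at the lowest GC content and −0.47 at the highest. In AKR/J the same medians were 0.38, −0.19, 0.40 and −0.31. The longest transcript of Reln has 11699 bases and 51.1% GC, and that of Trp73 has 57% GC. With the trend removed, Reln was lower by 1.16 in AKR/J (adjusted p = 0.00108) and by 1.10 in Cav1-null fetuses (adjusted p = 7.77e-07) on the log2 scale, and Cdk5r1 was lower in both (−0.79 and −0.89). Trp73 was called in Cav1-null fetuses (−1.01, adjusted p = 5.29e-05) and not in AKR/J (−0.65, adjusted p = 0.0886). Lrp8 turned, with values of 0.05 in AKR/J (adjusted p = 0.79) and 0.25 in Cav1-null fetuses (adjusted p = 0.00462), so that its direction on d15 depends on this step. Vldlr (0.18) was then called higher in Cav1-null fetuses, and Pafah1b1 (−0.20) and Ndel1 (−0.22) were called lower. The share of all genes called in that fit is not reported here. The summed forebrain level on d15 was 315 to 391 CPM for C57BL/6J, 159 to 222 CPM for AKR/J and 145 to 152 CPM for Cav1-null libraries, and neural progenitor markers were at 1320 to 1480, 932 to 1180 and 550 to 566 CPM. The 6 neuron markers summed to 4720 to 5370, 2650 to 4060 and 3650 to 3690 CPM in the same order, those of blood vessels and microglia to 154 to 199, 77 to 93.7 and 52.8 to 62.3 CPM, and the erythroid genes to 761 to 890, 2010 to 3070 and 2590 to 3230 CPM. The 8 Cajal-Retzius genes, which include Reln and Trp73, summed to 811 to 912, 420 to 734 and 350 to 361 CPM. Markers of cerebellar granule precursors summed to 487 to 521, 254 to 381 and 226 to 247 CPM. The part of any of these in the differences of the members was not tested.

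On d17 no member differed in AKR/J (0.742% of all genes called) or in Cav1-null fetuses (0.0491%), by edgeR or by DESeq2. The log2 fold changes of Reln (−0.72 and −0.74), Cdk5r1 (−0.84 and −0.72) and Trp73 (−0.69 and −0.93) had standard errors of 0.31 to 0.39, and those of the other members were −0.17 to 0.17. At an unadjusted p under 0.05 by edgeR, which 21.2% of all genes met in AKR/J and 7.55% in Cav1-null fetuses, Cdk5r1 was counted in AKR/J and Trp73 in Cav1-null fetuses. Without C57BL/6J library 2 of d17, Cdk5r1 was called lower in both strains and Trp73 in Cav1-null fetuses, with 26.4% of all genes called in AKR/J and 13.6% in Cav1-null fetuses. The difference between strains in the change between days was tested with an interaction term in edgeR fits of 12 libraries, where no member was called. In the early change of AKR/J, DESeq2 called Dcx with 4.83% of all genes, and 1 edgeR model of all 27 libraries called Dcx and Vldlr with 7.12%. Neither called a member in the other 3 differences. The background was 0.0711% of all genes for AKR/J in the early phase, 0.00468% for AKR/J in the late phase, and 0.00472% and 0.252% for Cav1-null fetuses. The unadjusted p was under 0.05 for 3, 4, 1 and 4 members in the same order, and for 16.3, 7.57, 15 and 21.9% of all genes. Dcx had the lowest p, and its early rise was larger in AKR/J than in C57BL/6J by 1.28 on the log2 scale (SE 0.28, adjusted p = 0.131), and it was called without library 3 of d12 in both strains (1.46, adjusted p = 0.0472), when 1.17% of all genes were called. Without AKR/J library 2 of d12, Dcx and Vldlr were called (14.8% of all genes), and without C57BL/6J library 3 of d12, Dcx and Cdk5r1 (1.74%). In the early change of Cav1-null fetuses, Trp73 was called without library 3 of d12 in both strains (−1.06, adjusted p = 0.0412, 0.445% of all genes). Without C57BL/6J library 1 of d17, Reln was called in the late change of AKR/J (1.69, adjusted p = 0.00131, 3.7% of all genes). Without the same library, 6 members and 26.1% of all genes differed in the late change between Cav1-null and C57BL/6J mice, and Reln did so by 1.71 (SE 0.14, adjusted p = 2.08e-05).

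Other genes of the pathway were taken from 4 lists, which were made with earlier results of these data known. In the AKR/J early phase, 5 of 14 genes of ligand processing and receptors rose and 1 fell, where 14.8% of all genes rose and 14% fell, with a median log2 fold change of 0.25 against 0.02 over all genes. Adamts3, a protease that cleaves and inactivates Reelin, rose (1.45, adjusted p = 0.00734), as did Itga3, a Reelin-binding integrin subunit (1.30, adjusted p = 0.00484). Lrp2, a large endocytic receptor of the same family as the Reelin receptors, fell by 1.91 (adjusted p = 0.0024). With the trend in length and GC content removed, 5 rose and 3 fell and the median of the list was −0.10. The shares of all genes that rose and fell in that fit are not reported here. Adamts3 also rose in the early phase of C57BL/6J (1.85, adjusted p = 0.0183) and of Cav1-null fetuses (1.67, adjusted p = 0.00107), where 2 and 3 genes of the list rose, with 1 and 2 lower. In these early phases 7.08% of all genes rose and 7.8% fell in C57BL/6J, and 11.6% rose and 11.8% fell in Cav1-null fetuses. In the late phase Apoe, the apolipoprotein that the same receptors bind, rose in AKR/J (0.71, adjusted p = 0.0246), C57BL/6J (1.32, adjusted p = 0.026) and Cav1-null fetuses (1.54, adjusted p = 1.5e-06), and Clu rose in AKR/J (0.95, adjusted p = 0.0033) and also in Cav1-null fetuses (0.82, adjusted p = 8.36e-05). The list had 4, 2 and 3 rising genes and 1 falling gene in each strain in that phase. Of all genes, 11.6% rose and 10.4% fell in the late phase for AKR/J, 7.46% and 5.58% for C57BL/6J, and 14.5% and 12.8% for Cav1-null fetuses.

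Of 22 genes of signalling below Dab1, 9 rose and 4 fell in the AKR/J early phase, and 4 rose and 5 fell once the trend was removed. Pik3r1, a regulatory subunit of PI3 kinase, rose (1.39, adjusted p = 0.00172), while Rnf7, a ring protein of the ligase that degrades active Dab1, fell by 1.83 (adjusted p = 0.00725) and Rap1a, a small GTPase, by 1.62 (adjusted p = 0.0107). Pik3r1 also rose in the C57BL/6J early phase (1.00, adjusted p = 0.016), where 1 gene rose and 1 fell. In the late phase it rose in AKR/J (0.40, adjusted p = 0.0243) and in Cav1-null fetuses (0.60, adjusted p = 8.92e-05). Pik3r3 fell in the late phase of all 3 strains, by 0.43 in AKR/J (adjusted p = 0.026), 0.69 in C57BL/6J (adjusted p = 0.024) and 0.53 in Cav1-null fetuses (adjusted p = 8.89e-05). Of 20 genes of Lis1, dynein and Cdk5 partners, Dync1i1, an intermediate chain of dynein found in neurons, rose in the early phases of AKR/J (2.03, adjusted p = 0.013), C57BL/6J (2.93, adjusted p = 0.0176) and Cav1-null fetuses (2.30, adjusted p = 0.000126). Nde1, the paralog of Ndel1 that dividing progenitors use, fell in the early phase by 0.72 for AKR/J (adjusted p = 0.0128), 1.19 for C57BL/6J (adjusted p = 0.016) and 1.09 for Cav1-null fetuses (adjusted p = 0.00219), and in the late phase by 1.20 for AKR/J, 1.28 for C57BL/6J and 1.07 for Cav1-null fetuses. Dynll1, a light chain of dynein that other complexes share, fell early in both AKR/J (−2.37, adjusted p = 0.00686) and C57BL/6J (−0.70, adjusted p = 0.0382). Counts for this list were 4 up and 2 down in the AKR/J early phase, 1 and 2 in C57BL/6J, and 1 and 3 in Cav1-null fetuses.

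Of 26 other migration genes, 7 rose and 2 fell in the AKR/J early phase, 4 rose and 3 fell in C57BL/6J, and 4 rose and 8 fell in Cav1-null fetuses. Bhlhe22, a transcription factor of cortical neurons, rose in all 3 strains, with log2 fold changes of 2.26 in AKR/J (adjusted p = 0.00136), 1.52 in C57BL/6J (adjusted p = 0.0336) and 1.22 in Cav1-null fetuses (adjusted p = 0.0142). Dclk1, the paralog of Dcx, rose in AKR/J (1.28, adjusted p = 0.003), while Filip1, which promotes breakdown of filamin A, fell (−1.32, adjusted p = 0.00509). In the late phase Neurog2, which drives progenitors to become neurons, fell by 1.46 for AKR/J (adjusted p = 0.00251), 2.61 for C57BL/6J (adjusted p = 0.00375) and 2.19 in Cav1-null fetuses (adjusted p = 4.31e-07). The list had 2 up and 7 down in the AKR/J late phase, 0 and 4 in C57BL/6J, and 6 and 9 in Cav1-null fetuses. The counts of all 4 lists rest on single libraries in part. The calls over all genes moved in the same fits. In the AKR/J early phase 2619 to 9052 genes were called with 1 library left out, in place of 5758. Without library 3 of d12 the share was 18.1%, in place of 28.9%. In that phase 2 genes of signalling below Dab1 rose, in place of 9, without library 3 of d12 or without library 1 or 3 of d15, and 3 rose without library 1 of d12. The genes of Lis1, dynein and Cdk5 partners that rose went from 4 to 0 without library 1 of d15, to 1 without library 1 of d12 or library 3 of d15, to 2 without library 3 of d12 and to 8 without library 2 of d12. In the C57BL/6J early phase no gene of the lists was called with any 1 library of d15 left out, when few of all genes were called either. In its late phase, 7, 10, 5 and 15 genes of the lists fell without library 1 of d17, in place of 1, 1, 2 and 4. The share of all genes called in either direction was then 33.2%, in place of 13%.

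**Figure D4:**
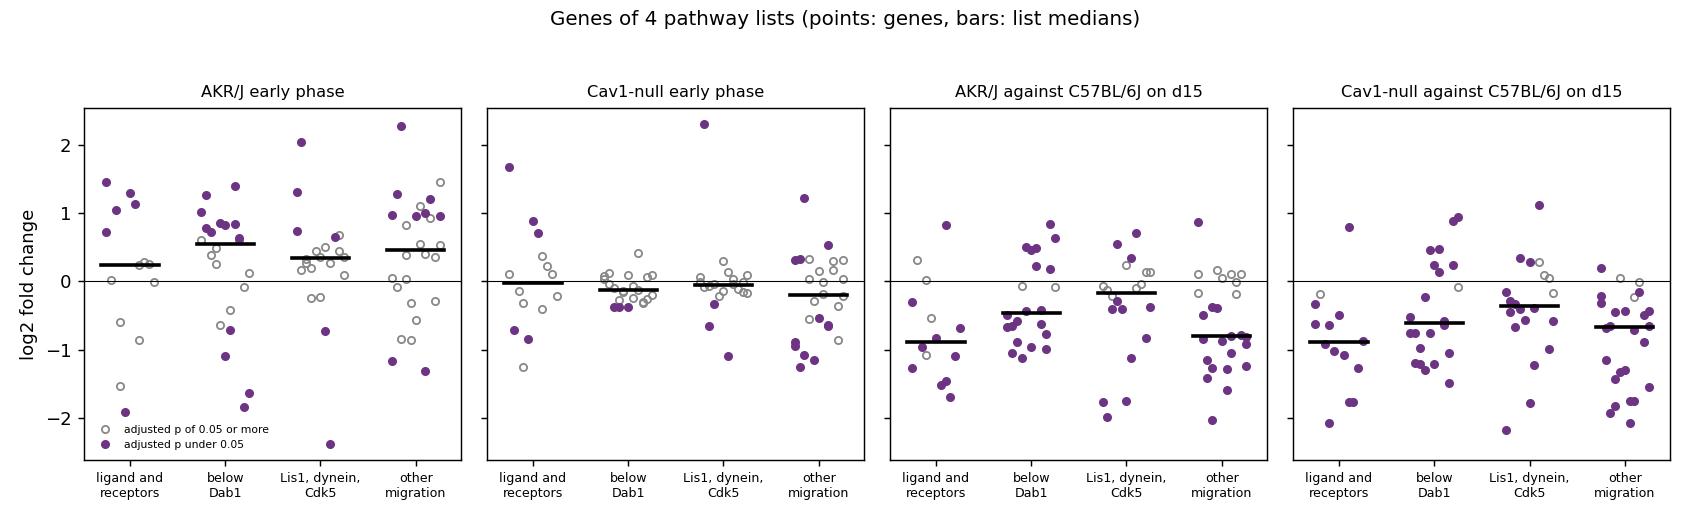
Log2 fold changes of the genes of 4 pathway lists in the early phases of AKR/J and Cav1-null fetuses and in AKR/J and Cav1-null fetuses against C57BL/6J on d15, with 1 point per gene, filled where the adjusted p was under 0.05, and bars at the list medians. On d15 most called genes of the lists lay below 0 in both strains.

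Against C57BL/6J on d15, 9 of the 14 genes of ligand processing and receptors were lower in AKR/J and 1 was higher, and 12 were lower and 1 higher in Cav1-null fetuses. Of all genes, 22.3% were lower and 18.8% higher in AKR/J, and 31.8% were lower and 26.8% higher in Cav1-null fetuses. The medians were −0.89 in both, against 0.06 and 0.03 over all genes. With the trend removed, 6 were lower and 1 higher in AKR/J and 10 were lower and 2 higher in Cav1-null fetuses. The shares of all genes lower and higher in those fits are not reported here. The d15 counts of the 4 lists with the trend removed thus have no matching background. Lrp1, a giant receptor of the same family that takes up Apoe among other ligands, was lower in AKR/J (−1.69, adjusted p = 4.47e-05) and in Cav1-null fetuses (−1.76, adjusted p = 9.27e-08). Adamts4, a protease that can cleave Reelin, was lower by 1.45 and 1.76. Of the genes below Dab1, 13 were lower and 7 higher in AKR/J and 14 and 7 in Cav1-null fetuses, which became 8 and 6 and 12 and 4 with the trend removed. The kinase gene Src (−0.98 and −1.49) and Cdh2, the gene of N-cadherin (−1.12 and −1.29), were lower in both. Of the Lis1, dynein and Cdk5 partners, 9 were lower and 3 higher in AKR/J and 13 and 3 in Cav1-null fetuses, which became 6 and 6 and 9 and 7 with the trend removed. Cdk5r2, the gene of the second Cdk5 activator p39, was lower in AKR/J (−1.76, adjusted p = 0.00361) as well as Cav1-null fetuses (−2.17, adjusted p = 1.68e-06), and so was Dync1h1, the heavy chain of dynein (−1.75 and −1.78). Of the other migration genes, 17 were lower and 1 higher in AKR/J and 22 and 1 in Cav1-null fetuses, and with the trend removed 11 and 3 and 17 and 3. Tbr1, a transcription factor of early cortical neurons (−2.03 and −1.83), and Map1b, a microtubule protein of growing axons (−1.58 and −2.07), were lower in both.

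On d12 in AKR/J against C57BL/6J, 5 of 14, 14 of 22, 6 of 20 and 9 of 26 genes of the lists were lower, in the order given above, and 1, 5, 1 and 1 were higher, with 14.1% of all genes lower and 14.5% higher. No gene of the lists was called without C57BL/6J library 2, when 25 genes were called in all. Without AKR/J library 1, the same counts were 1, 1, 1 and 1 lower and 0, 2, 1 and 0 higher, without AKR/J library 3 they were 1, 2, 2 and 1 lower, and without C57BL/6J library 1 they were 1, 4, 2 and 1 lower. In the same order 6.8, 7.48 and 8% of all genes were called, in place of 28.6%. Without library 3 of both strains 2, 8, 1 and 8 were lower, with 15% of all genes called. Efnb3, an ephrin that takes part in Reelin signalling (−1.47, adjusted p = 0.0115), the kinase gene Fyn, whose product phosphorylates Dab1 (−1.34, adjusted p = 0.0115), Cdk5r2 (−2.08, adjusted p = 0.012) and Bhlhe22 (−2.09, adjusted p = 0.0115) were lower. Genes with changes of like size were higher in AKR/J. They were Dynll1 (2.46, adjusted p = 0.012), Rnf7 (2.08, adjusted p = 0.0115), Rap1a (1.94, adjusted p = 0.012) and Selenop, a selenium carrier that Lrp8 takes up (1.64, adjusted p = 0.0178). With the trend removed, 2, 5, 4 and 5 genes were lower and 2, 3, 1 and 1 higher, with 16% of all genes called in either direction. The median of the first list went from −0.68 to 0.07. In Cav1-null fetuses on d12 and on d17 no gene of the 4 lists was called by edgeR, and in AKR/J on d17 Filip1 alone was (−1.13, adjusted p = 0.0394).

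Genes with the most similar pattern were found over 27 libraries among 16445 genes with a mean of at least 1 CPM, by the root mean square of the difference in log2 level after each gene was centred on its mean. For Reln these included Tenm4, Slit1, Kif21b and Astn1, with differences of 0.28 to 0.30 against a median of 0.92 over all genes. Slit1 codes for an axon guidance ligand and Astn1 for an adhesion protein of migrating neurons. For Trp73 they included Emx1, Dlx2, Shb and Prdm16, with differences of 0.34 to 0.50 against a median of 1.05. Emx1 and Dlx2 code for homeobox factors of the forebrain. For Dcx they were Actl6b, Csrnp3, Nanos1, Aldh1l2 and Ddx25, with differences of 0.17 to 0.21 against a median of 0.78, and Actl6b codes for a chromatin remodelling subunit of neurons.

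Splice junctions of 9 members were listed, since Cdk5r1 has 1 exon. The 54 junctions gave 1458 values, of which 257 were 0, and some of these stood in libraries where 10 or more reads would be expected at that junction from the other libraries. The authors removed junction reads by filters, so a 0 may be a removed value. In the planned test, with at least 20 reads at the splice site in every library, 7 of the 31 pairs of a member junction and a site could be tested, and none was called for days or strains by limma, with 5.57% of all 7157 pairs called from d12 to d15, 0.768% from d15 to d17, 4.68% for AKR/J and 0.293% for Cav1-null fetuses against C57BL/6J. The unlikely 0 values were then taken as missing and the minimum lowered to 10 reads, a step chosen after values were seen. In this test, with 7.38% of 11826 pairs called from d12 to d15, 2.02% from d15 to d17, 4.63% for AKR/J and 0.194% for Cav1-null fetuses, the use of 2 neighbouring cassette exons of 1 region of Lrp8 changed. They are shown here because they carry the change in splicing, with the exon in capitals and 10 bases of intron on each side in lower case, on the plus strand of GRCm39.

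Lrp8 exon of 123 bases (chr4:107705478-107705600): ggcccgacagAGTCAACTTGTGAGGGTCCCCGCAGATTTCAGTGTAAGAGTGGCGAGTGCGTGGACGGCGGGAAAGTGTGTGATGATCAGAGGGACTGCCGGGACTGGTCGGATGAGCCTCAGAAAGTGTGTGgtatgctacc

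Lrp8 exon of 39 bases (chr4:107707301-107707339): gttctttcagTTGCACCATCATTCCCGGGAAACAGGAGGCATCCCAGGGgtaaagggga

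Both exons start after an ag and end before a gt, and both are a multiple of 3 bases long. The 123-base exon is whole in 14 of the 47 annotated Lrp8 transcripts, is coding in 12, and holds a cysteine-rich ligand-binding repeat of the LDL receptor type. The 39-base exon is in 11 transcripts and coding in all of them. The share of the listed reads at the next exon that came from the 123-base exon, and not from skipping it, was 14.8, 22.1 and 46.7% in AKR/J on d12, 38.4, 45.8 and 53.8% on d15, and 68.4, 75.8 and 69.9% on d17. In C57BL/6J it was 40.5, 46.8 and 31.1% on d12, 62.1, 55.8 and 66.2% on d15, and 75, 77.8 and 63.7% on d17. In Cav1-null fetuses it was 38.8 and 44.3% in 2 libraries of d12, 59.1, 59.5 and 62.4% on d15, and 74.2, 86.2 and 72.9% on d17. The third Cav1-null library of d12 had 58 reads that kept the exon and listed 0 that skipped it, and was set aside. AKR/J library 3 of d12 had 15 reads at the site, against 61 to 353 in the other libraries used, so its 46.7% rests on few reads.

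The exon was kept more often from d12 to d15 (log2 odds 1.22, SE 0.28, adjusted p = 0.00751) and from d15 to d17 (1.17, SE 0.27, adjusted p = 0.0189). With AKR/J library 3 of d12 left out and at least 20 reads at the site, the values were 1.39 (adjusted p = 0.00127) and 1.17 (adjusted p = 0.00726). The share of the 39-base exon was called as well from d12 to d15 (log2 odds 1.48, SE 0.35, adjusted p = 0.00931), but it was set against the same skipping reads, so it also rises where the 123-base exon takes reads from skipping. The calls of the 2 exons are thus not separate. Shares were therefore also taken over all 3 outcomes of the region (the 123-base exon, the 39-base exon or neither), a step chosen after values were seen. On d12, d15 and d17 the 39-base exon then had 5.6 ± 5.42, 7.88 ± 2.13 and 9.06 ± 2.26% of reads in AKR/J, 6.45 ± 0.69, 11.4 ± 1.33 and 9.55 ± 2.93% in C57BL/6J, and 3.66 ± 1.25 (n = 2), 9.69 ± 2.52 and 9.82 ± 1.19% in Cav1-null fetuses. The 123-base exon had 25.7 ± 13.8, 42.5 ± 7.62 and 64.8 ± 2.75% in AKR/J, 36.9 ± 7.4, 54.3 ± 3.94 and 65.2 ± 5.94% in C57BL/6J, and 40 ± 4.27 (n = 2), 54.4 ± 0.12 and 70.2 ± 7.56% in Cav1-null fetuses. The region had been picked by limma calls on these same libraries. Exact tests on it are thus no separate support for the change, and their p-values do not count that choice. In 2-sided exact permutation tests of libraries within strains, with p adjusted over 6 tests, the 123-base exon rose from d12 to d15 (log2 odds 1.01, adjusted p = 0.0045) and from d15 to d17 (0.99, adjusted p = 0.0015). The 39-base exon rose from d12 to d15 (0.99, adjusted p = 0.018 by the same exact test), and from d15 to d17 its value was −0.01 (adjusted p = 0.945, exact). For AKR/J against C57BL/6J, with libraries permuted within days, the values were −0.52 for the 123-base exon (adjusted p = 0.0863, exact) and −0.35 for the 39-base exon (adjusted p = 0.315, exact), and without AKR/J library 3 of d12 they were −0.71 (adjusted p = 0.0158, exact) and −0.61 (adjusted p = 0.0177, exact). The 381-base exon of the same gene was kept in 28.9% of 2780 reads, with group means of 21.5 to 34.1% and no call.

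**Figure D5:**
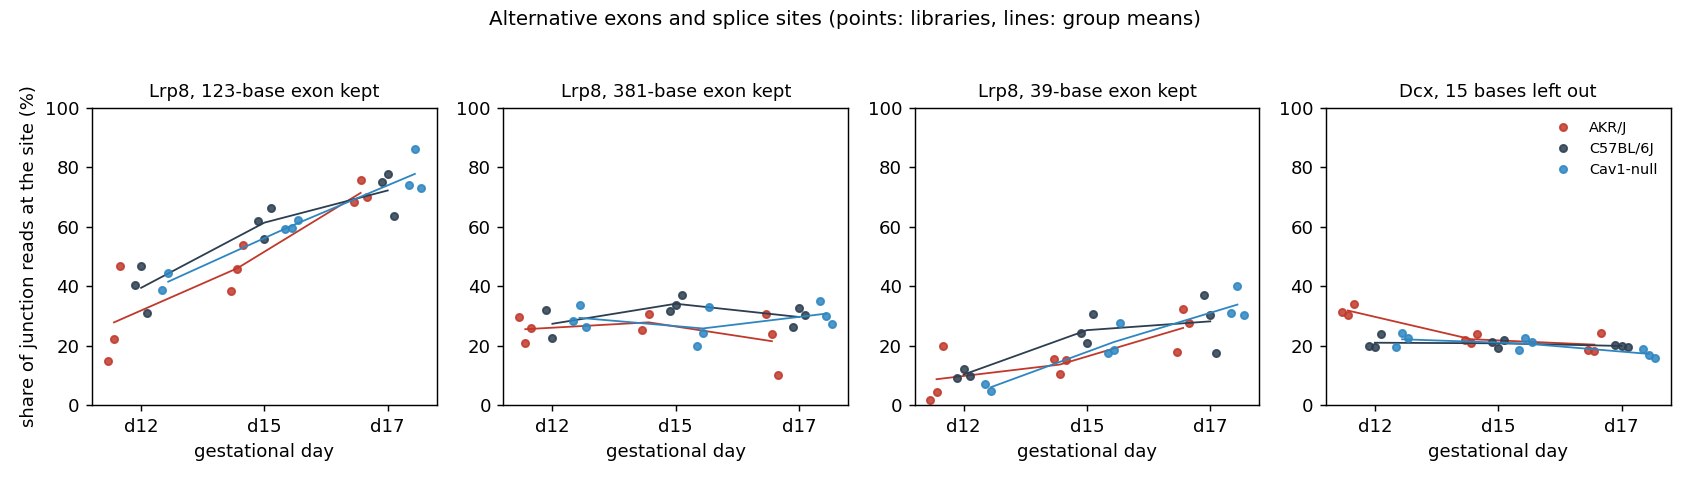
Share of junction reads (%) that kept 3 Lrp8 exons or left out 15 bases of Dcx, by gestational day, with 1 point per library, colours for strains and lines through group means. The Lrp8 shares of the 123- and 39-base exons are each set against the same skipping reads. The share with the 123-base exon went from 14.8 to 46.8% on d12 to 63.7 to 86.2% on d17, whereas the 381-base exon stayed between 10.2 and 37.1%.

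Dcx and Reln also had alternative forms that the junction reads could measure. Their sequences are shown on the minus strand of GRCm39, with the alternative bases in capitals, because the forms differ by these bases alone.

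Dcx choice of 15 bases (chrX:142658751-142658765): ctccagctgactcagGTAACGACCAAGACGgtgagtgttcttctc

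Reln exon of 6 bases (chr5:22096560-22096565): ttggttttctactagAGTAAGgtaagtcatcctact

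At Dcx, the splice donor can lie before or after 15 bases, and both donors begin with gt. The 15 bases were left out in 20.6% of 19464 reads, with 30.4 to 33.9% in AKR/J on d12 and 15.9 to 24.4% in the other 24 libraries. The AKR/J libraries of d12, which had the fewest reads of Dcx (274 at this site in all 3), thus did not overlap with the rest, but neither days (log2 odds for leaving the bases out −0.29, adjusted p = 0.38) nor AKR/J against C57BL/6J (0.32, SE 0.17, adjusted p = 0.324) was called over all days. A second choice of 3 bases in Dcx gave the shorter form in 44.3% of 14328 reads. The 6-base exon of Reln, near the end of the gene, was kept in 92.8% of 680 reads over 13 libraries, of which C57BL/6J library 3 of d15 gave 222 reads and library 1 of d17 gave 180. The share was 85.7 to 100% in all of these libraries but AKR/J library 1 of d17 and Cav1-null library 3 of d15, which had 1 and 2 reads at the site and a share of 0%. In the 10 libraries set aside for unlikely 0 values, no read kept the exon and 3 to 24 reads skipped it, so the share depends on this step. The 84-base exon of Vldlr, which codes for the segment with O-linked sugars, was kept in 5.07% of 1578 reads, with no call. Copies made by PCR were not told apart from separate molecules in these reads.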

How the data were processed

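Poly-A RNA of 27 fetal brains was sequenced after priming with random hexamers. Per the labels and the methods of the study, the authors used FastQC, cutadapt and fastp, mapped reads to GRCm39 with STAR and deposited raw counts of reads for each Ensembl gene. The counting tool is not given in the sources used here, nor is its handling of strand. In the deposited junction counts, those with multi-mapped reads, short overhangs or few reads had been removed by the authors.

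Libraries were grouped by strain and day. Members and lists were chosen with earlier results of these data known. Counts were filtered with filterByExpr, scaled by TMM and tested by edgeR 4.0.16 quasi-likelihood on the libraries compared (R 4.3.3), with calls at an adjusted p (Benjamini-Hochberg, all genes) under 0.05. Standard errors were derived as the size of the log2 fold change divided by the root of F. Because of the different sets of libraries scaled, ratios of printed means can differ from fitted folds. Junction shares were tested by limma 3.58.1 on log2 odds with 0.5 added, with strain and day as terms. An unlikely 0 is one where at least 10 reads were expected. The trend with GC content and length was a spline with 4 degrees of freedom. Plots were drawn with matplotlib 3.10.9, and the fits were tested on simulated data with 200 genes changed. Of 2-fold changes, 10% were recovered in the AKR/J early phase (19486 genes), 40% in the C57BL/6J early phase (18655), 60% in the Cav1-null late phase (19773), 45% in AKR/J on d15 (19219) and 2% in the difference of AKR/J in the early change (20758), and of 3-fold changes 48, 54, 85, 63 and 16%. Wrong calls made up 10.8, 12.1, 15.2, 8.47 and 5.26% of calls in the same order, more than the 5% aimed at. In the AKR/J early phase 5758 genes were called in the data, far more than the 200 changed in the simulation. The shares recovered there need not hold for the data. By the rule used, replicate numbers did not pair the libraries: in no comparison was the correlation of same-numbered libraries over 0.1 in every pair. For AKR/J against C57BL/6J on d12 the values were 0.08, 0.29 and 0.25, and library 3 of d12 was low in Emx1 in each strain. The rule thus does not show that same-numbered libraries of d12 were unrelated.

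All 10 members were tested in each comparison, and most of those not called are given by their range. Pathway genes were, for each list, the 3 with the largest change among those called without overlap between groups, of which the text gives a part. Coordinates and sequences are from GRCm39 with the Ensembl annotation. Protein sequences were not used here, and some genes that met these rules are not reported here.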

Additional observations from a re-analysis of the deposited data

How the results depend on the processing

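Of 2517 values of single members under an alternative, 2346 stayed on the same side of the threshold, 81 lost the call, 85 gained one and 5 turned. A value was counted as turned only if it changed sign and was called in the main fit, in the alternative or in both. Values not called in either fit may have changed sign among the 2346. Called members of 10 changed as follows. The share of all genes called in the same fit follows each count. DESeq2 (1.42.0) called 5 in the C57BL/6J early phase (25.5%), 4 in its late phase (23%) and 5 in the Cav1-null early phase (26.9%), and 1 (Dcx) in the difference of AKR/J in the early change (4.83%). The model of all 27 libraries called 1 in the AKR/J late phase (10.2%), 4 and 0 in the phases of C57BL/6J (16.3 and 19.6%), 0 and 0 in those of Cav1-null fetuses (13.1 and 3.56%), 8 and 3 in AKR/J against C57BL/6J on d12 and d15 (47 and 22.5%), 3 in Cav1-null fetuses on d15 (35.1%), and 2 in the difference of AKR/J in the early change (7.12%). Library sizes alone called 5 in the Cav1-null early phase (23.4%) and 1 in that difference (0.507%). Without a filter on low counts, 1 was called in the AKR/J late phase (12.7%), 1 in that difference (1.4%) and 1 (Reln) in the difference of Cav1-null fetuses in the late change (2.61%). With the GC and length trend removed (chosen after seeing the data, as were the settings without replicate 3, those for unlikely 0 values and the list counts with libraries left out), 2 were called in the C57BL/6J early phase (19.8%), and 2 and 3 in AKR/J against C57BL/6J on d12 and d15 (16 and 27.9%). Without replicate 3 of d12 in both strains, 2 were called in Cav1-null fetuses on d12 (18%), and 1 each in the differences of AKR/J and of Cav1-null fetuses in the early change (1.17 and 0.445%). The cause of these changes was not tested.

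With single libraries left out, called members ranged from 4 to 8 (with 2619 to 9052 genes called in all) and 0 to 2 (1576 to 4802) in the phases of AKR/J, 0 to 4 (0 to 5958) and 0 to 6 (160 to 6990) in those of C57BL/6J, and 0 to 5 (2301 to 7378) and 0 to 2 (3974 to 5331) in those of Cav1-null fetuses. They ranged from 0 to 6 (25 to 8009), 4 to 6 (5749 to 7828) and 0 to 1 (54 to 5478) for AKR/J on d12, d15 and d17, from 0 to 0 (0 to 1500), 6 to 7 (10418 to 10947) and 0 to 2 (2 to 2865) for Cav1-null fetuses, and from 0 to 2 (3 to 3251), 0 to 1 (1 to 823), 0 to 0 (1 to 1618) and 0 to 6 (0 to 5792) for the 4 differences in change. Member junctions called stayed at 0.

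Turned values, which leave out sign changes of members not called in either fit, were those of Vldlr on d15 in AKR/J with library sizes alone (0.16, adjusted p = 0.0438), Lrp8 on d15 with the trend removed (0.045 in AKR/J, 0.25 in Cav1-null fetuses), and Dcx (0.031) and Pafah1b1 (0.16) on d15 in Cav1-null fetuses with library sizes alone. Library sizes alone shifted the median of all genes by 0.457 in the AKR/J early phase, by −0.381 in AKR/J on d12, and by 0.225 and 0.215 in AKR/J and Cav1-null fetuses on d15. With unlikely 0 values missing, called pairs of member junctions and sites went from 0 to 4 from d12 to d15 and 2 from d15 to d17 at 10 reads, to 1 from d12 to d15 at 20 reads, and to 4, 2 and 2 (the last AKR/J against C57BL/6J) without AKR/J library 3 of d12.

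The replicate block, which rests on numbers that did not pair the libraries by the rule used, called 1 member in the AKR/J late phase (16.3%) and 0 in the C57BL/6J early phase, where no gene was called in all. It changed no count of members by over 1.5 times elsewhere. Depth was low for Trp73 (7 reads) and at the Lrp8 exons (10 and 15 reads) in AKR/J library 3 of d12.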
